A study of Mus musculus with 27 samples.

Results

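Postmitotic inner root sheath (IRS) cells were the 225 cells, among 28373 kept cells of back skin from 2 mice, that carried IRS keratin RNA and no detected RNA of 3 proliferation genes. A cell was kept when it had at least 500 genes, at least 1000 unique molecular identifiers (UMIs, each standing for 1 captured RNA molecule) and under 10% mitochondrial UMIs. It was a member when Krt25, Krt27, Krt28, Krt71 and Krt73 together made up at least 0.3% of its UMIs and when Top2a, Mki67 and Cenpf had 0 UMIs. Mouse 1 gave 156 members of 14458 kept cells, which is 1.08% (exact Clopper-Pearson 95% interval 0.917 to 1.26). Mouse 2 gave 69 of 13915, which is 0.496% (0.386 to 0.627). The intervals cover counting error only. Since these values chose the cells, the contrasts between cells of the same skin are given below as descriptions, with no test.

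The study set hair follicle stem cells (HFSCs) in culture beside skin. The skin was AnaVI back skin, a stage of the growing hair follicle, from wild-type mice at postnatal day 32, sorted for cells without CD45, CD31, CD140a and CD117. HFSCs of such mice were grown as 3D cultures, tagged by condition with hashtag antibodies and pooled, in FBS (fetal bovine serum), in the serum-free supplement B-27, in atRA+PKCi (all-trans-retinoic acid with an inhibitor of protein kinase C), or in atRA+PKCi with R-spondin (Rspo), BMP2/4, both, or both and an inhibitor of the retinoic acid receptor (RARi). Bulk RNA-seq covered HFSCs from Telogen skin (resting follicles) at postnatal day 55, wild-type or Rxra cKO (2 mice each), grown in FBS or in atRA+PKCi. The Rxra cKO lines carried Sox9-CreER, which acts in Sox9-expressing cells, floxed Rxra and a Rosa26-YFP reporter, and all lines were first established on inactivated feeder cells. Cultures hold cells grown from stem cells and no follicle.

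The IRS is the stiff sleeve that surrounds the growing hair shaft. Its cells arise from dividing precursors in the hair bulb, leave the cell cycle, fill with keratin filaments and trichohyalin, become linked by desmosomes and finally break down above the bulb so that the hair can emerge. Keratin filaments are made of pairs of a type I and a type II chain. In the IRS the type I chains come from Krt25, Krt27 and Krt28 and the type II chains from Krt71, Krt72 and Krt73, of which Krt72 and Krt73 are known as keratins of the IRS cuticle. The transcription factor Gata3 is known to be needed for the IRS lineage.

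The regions before the starts of the 5 keratin genes that chose the members are shown because these genes define the cells, and that of Prr9 because it led the other genes of the class. The 3 type I genes lie close together on chromosome 11 and the 2 type II genes on chromosome 15. Each sequence holds the 250 bases before the start in RefSeq on GRCm38.p6, written along the gene, with capitals for matches to TATAAA and to the GATA words AGATAA and TGATAA and also AGATAG and TGATAG.
Krt25 promoter, chr11:99322952-99323201, minus strand: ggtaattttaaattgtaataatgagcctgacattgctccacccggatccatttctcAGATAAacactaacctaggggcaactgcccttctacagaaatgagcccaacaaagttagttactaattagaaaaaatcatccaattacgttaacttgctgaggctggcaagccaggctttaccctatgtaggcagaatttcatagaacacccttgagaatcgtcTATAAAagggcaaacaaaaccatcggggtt
Krt27 promoter, chr11:99351119-99351368, minus strand: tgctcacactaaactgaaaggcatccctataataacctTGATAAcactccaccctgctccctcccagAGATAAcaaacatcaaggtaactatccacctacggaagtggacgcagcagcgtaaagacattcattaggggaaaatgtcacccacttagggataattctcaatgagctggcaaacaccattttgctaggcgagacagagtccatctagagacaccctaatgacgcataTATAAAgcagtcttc
Krt28 promoter, chr11:99374904-99375153, minus strand: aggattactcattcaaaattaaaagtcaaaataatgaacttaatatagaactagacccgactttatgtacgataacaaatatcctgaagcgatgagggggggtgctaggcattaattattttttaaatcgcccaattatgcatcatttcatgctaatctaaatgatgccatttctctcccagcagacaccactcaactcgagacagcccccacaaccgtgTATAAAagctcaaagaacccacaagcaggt
Krt71 promoter, chr15:101743098-101743347, minus strand: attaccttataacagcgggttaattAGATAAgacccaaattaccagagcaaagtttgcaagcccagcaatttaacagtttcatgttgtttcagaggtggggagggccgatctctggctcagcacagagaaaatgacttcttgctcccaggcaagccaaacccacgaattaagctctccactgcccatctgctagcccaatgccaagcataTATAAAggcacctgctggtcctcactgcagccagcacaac
Krt73 promoter, chr15:101802361-101802610, minus strand: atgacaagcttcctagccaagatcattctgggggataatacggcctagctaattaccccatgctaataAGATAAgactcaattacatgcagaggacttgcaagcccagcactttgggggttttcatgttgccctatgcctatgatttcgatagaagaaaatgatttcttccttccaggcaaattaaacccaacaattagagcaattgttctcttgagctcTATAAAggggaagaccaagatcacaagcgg
Prr9 promoter, chr3:92123948-92124197, minus strand: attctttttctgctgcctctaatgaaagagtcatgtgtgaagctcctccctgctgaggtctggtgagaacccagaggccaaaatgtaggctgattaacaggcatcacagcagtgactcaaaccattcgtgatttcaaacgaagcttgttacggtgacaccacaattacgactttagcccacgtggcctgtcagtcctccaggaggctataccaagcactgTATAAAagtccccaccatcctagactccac

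TATAAA was found in 6 of the 6 windows, against 12.4% of 32851 RefSeq promoters of the same length when both strands were searched. With the first base between -45 and -10 and on the strand of the gene it was again found in 6 of 6, against 2.35% of promoters. A GATA word on either strand was found in 4 of the 5 keratin genes, at -194 in Krt25, at -212 and -183 in Krt27, at -225 in Krt71 and at -182 in Krt73, and in none of Krt28 and Prr9, against 26.5% of promoters. CTTTGAA or CTTTGAT, words bound by LEF and TCF factors, were found in 0 of 6 windows, against 7.48% of promoters. These matches describe letters in a window and no binding was measured here.

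The 2 skin matrices held 16521 and 16068 barcodes with 145318618 and 167258677 UMIs, and medians of 8869 and 10594 UMIs per kept cell. Members had a median of 7970.5 UMIs in mouse 1 (1069 to 26503) and 9800 in mouse 2 (1036 to 24314), a median of 2771.5 and 3200 genes, and 4.64% and 5.34% mitochondrial UMIs. Scrublet called 9 and 0 members doublets, against 5.76% and 3.82% of kept cells. The mice shared 62 barcodes, of which 1 belonged to a member of mouse 2. Summed over the members there were 1310987 and 656285 UMIs, and a level below is the UMIs of a gene per 1000000 of these (CPM). The libraries count RNA molecules by UMIs, and these levels were not divided by the length of a gene. Whether they depend on it was not tested.

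The IRS keratins were the most abundant markers of the class, and the members carried more of each than IRS cells with proliferation RNA, here called cycling IRS cells (760 and 497 cells). Krt71 had 6230 CPM in the members of mouse 1 and 5943 in those of mouse 2, against 4006 and 3639 in cycling IRS cells. Krt25 stood at 3791 and 3262 against 2350 and 1932. Krt28 stood at 2173 and 1751 against 1135 and 1111. The members of both mice were above the cycling cells of both mice in all 3. The less abundant Krt27 showed a wider gap, with 601 and 510 CPM against 222 and 193. Krt73 had 1234 and 876 CPM against 331 and 392. Krt72, a cuticle keratin that the rule did not use, followed Krt73 at a lower level, with 97.6 and 51.8 CPM against 14.5 and 17.9.

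Outside the IRS these keratins were low but not at 0. In shaft cells, defined by hair keratins at 0.3% or more of UMIs with IRS keratins under that share and no proliferation UMI (113 and 37 cells, a class added after the data were seen), Krt71 had 29.4 and 47.4 CPM and Krt73 had 6.91 and 2.06. RNA that is free in the suspension gives UMIs in cells that do not express a gene. Cells with at least 20 Col1a1 and Col1a2 UMIs and IRS keratins under 0.3% were taken as a rough measure of it (6797 and 8645 cells). The cut may also take in cells other than fibroblasts, since members of mouse 2 themselves had 747 CPM of Col1a1 and 850 of Col1a2. The shares below are thus no pure measure of free RNA. Medians of the collagen-rich cells were 9437 and 12620 UMIs, above those of the members. Krt71 was detected in 32.7% and 29.5% of these collagen-rich cells, at 62.2 and 51.1 CPM, and in 92.3% and 89.9% of members. Krt73 was detected in 4.47% and 5.32% of collagen-rich cells and in 63.5% and 47.8% of members. Gata3 was detected in 17.4% and 30.0% against 83.3% and 84.1%. The 12 genes measured in this way include the 5 keratins of the rule, whose gap was set by the selection. Outside the rule, Krt72, Prr9, Crym, Tchh, Dsc1, Gata3 and Cux1 were each detected in a larger share of members in both mice. Other genes were not measured in this way.

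**Figure D1:**
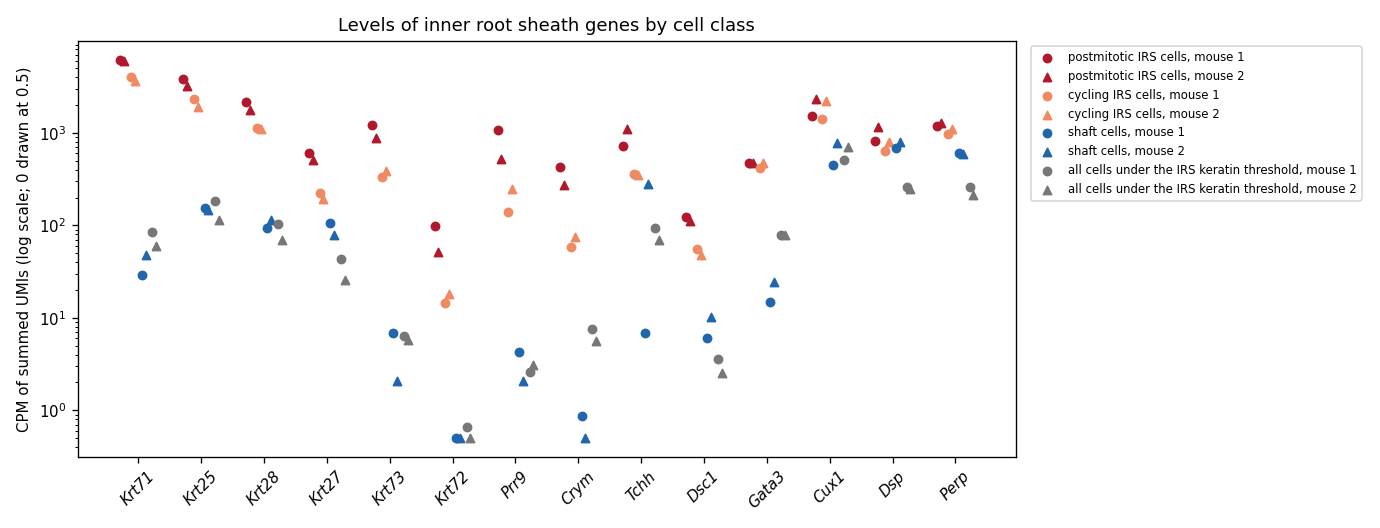
Levels in CPM, on a log axis, of 14 genes in postmitotic IRS cells, cycling IRS cells, shaft cells and all cells under the IRS keratin threshold, with circles for mouse 1, triangles for mouse 2 and 0 drawn at 0.5. Krt71 sits highest of these genes in both IRS classes. Prr9 and Crym are higher in the summed postmitotic than in the summed cycling cells of each mouse. Gata3 lies at a like level in both IRS classes (472 and 477 CPM against 421 and 474).

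The genes given as markers of the class were found, but not in all of its cells. Prr9, a gene for a proline-rich protein, had 1074 CPM in mouse 1 and 518 in mouse 2, against 138 and 245 in cycling IRS cells and 4.32 and 2.06 in shaft cells. Only 29 of 156 and 11 of 69 members had a Prr9 UMI, and the 10 members with the most held 88.8% and 99.4% of them. Crym, which encodes the thyroid hormone-binding protein mu-crystallin, had 431 and 273 CPM against 58.8 and 74.8 in cycling IRS cells, and was detected in 35 and 15 members. The first 10 of them held 76.6% and 92.7% of its UMIs. Dsc1, a desmosomal cadherin of differentiated keratinocytes, was spread more evenly at a low level, with 124 and 111 CPM in 71 and 34 members. Krt71 and Krt25 were detected in 144 and 150 members of mouse 1 and in 62 and 61 of mouse 2, with medians of 23.5 and 31 Krt71 UMIs and of 17.5 and 19 Krt25 UMIs per member. Krt71 is a keratin of the rule, so its spread was set by the selection and adds nothing to the name of the class. Outside the rule, Gata3 was common and Prr9, Crym and Krt72 belonged to few cells.

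Cell cycle genes outside the rule describe how far the word postmitotic holds. They rise with the rule's own 3 genes, which also chose the compared cells, so the gap is no independent check of the word. The summed level of a list of G2/M genes was 146 and 133 CPM in the members and 3700 and 3116 CPM in IRS cells with 10 or more UMIs of the 3 rule genes. For the S phase list the values were 359 and 450 against 1354 and 1378 CPM. Only 62 of 156 and 33 of 69 members held 2 or fewer UMIs of the 2 lists together. IRS cells with exactly 1 UMI of the rule genes (139 and 63 cells) lay near the members, at 172 and 154 CPM for G2/M and 429 and 481 CPM for S phase. Krt71 was 6791 and 4788 CPM in these 1-UMI cells, on either side of the members. The line drawn by the rule at 0 UMIs therefore passed through cells that were alike in these measures, and a deeper cell was more likely to show a UMI. At least 1 UMI of the rule genes was found in 47.6% and 63.4% of collagen-rich cells too, and in 83.0% and 87.8% of all IRS-keratin cells.

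Prr9, Crym, Krt72 and Krt73 were lower in cells with 10 or more UMIs of the rule's proliferation genes than in those with 0. Prr9 stood at 1074 and 518 CPM at 0 UMIs and at 27.2 and 59.2 at 10 or more, and Crym at 431 and 273 against 12.7 and 21.9. Krt72 stood at 97.6 and 51.8 against 3.80 and 2.97 CPM, and Krt73 at 1234 and 876 against 160 and 138. Krt71 showed a smaller gap, with 6230 and 5943 against 3416 and 3332 CPM. Gata3 was 472 and 477 CPM at 0 UMIs and 400 and 440 at 10 or more, with values on both sides in between. The cyclin-dependent kinase inhibitor Cdkn1a, which halts the cycle, had 188 and 218 CPM at 0 and 96.1 and 104 at 10 or more. In mouse 2 all 4 of Prr9, Crym, Krt72 and Krt73 were highest in the 1-UMI bin, outside the members. Their levels there were 998, 319, 119 and 1418 CPM.

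**Figure D2:**
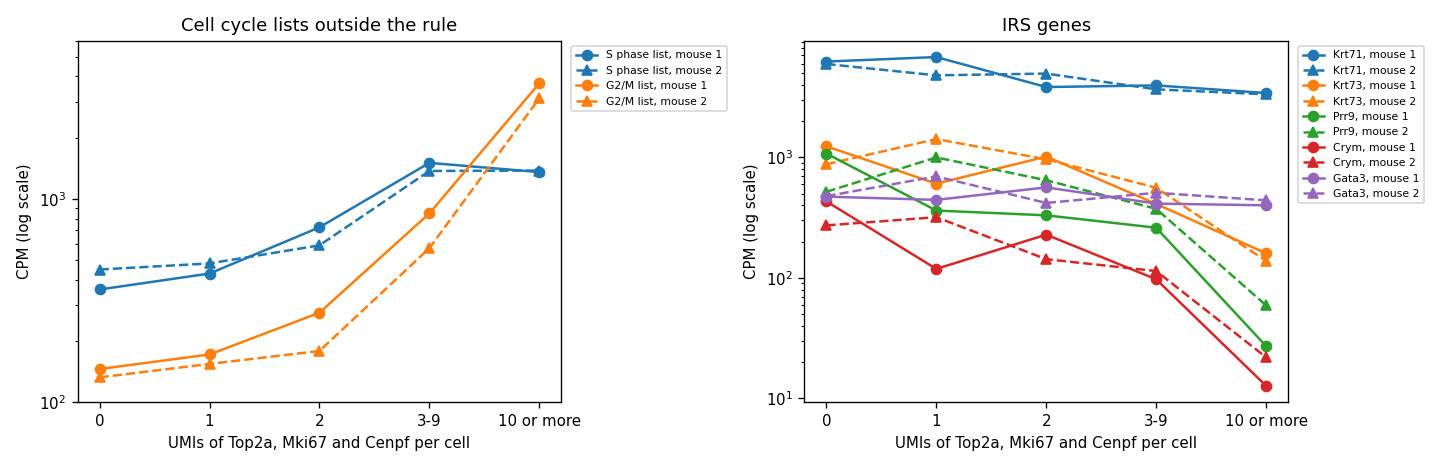
IRS-keratin cells binned by their UMIs of Top2a, Mki67 and Cenpf (0, 1, 2, 3 to 9, 10 or more), with solid lines for mouse 1, dashed lines for mouse 2 and levels in CPM on log axes. In the left panel the summed G2/M list lies at 146 and 133 CPM at 0 UMIs and at 3700 and 3116 at 10 or more, and the S phase list at 359 and 450 and at 1354 and 1378, and in the right panel Prr9 and Crym differ most of the 5 genes drawn and Gata3 stays within 400 to 695 CPM.

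Against cycling IRS cells the members differed mainly by what they lacked. A gene counted as past the fold when it differed at least 4-fold in the same direction in both mice, with 10 CPM added to each level, among genes at 50 CPM or more in either class in both mice. Of 3511 genes, 0 were higher (0%) and 56 lower (1.59%) in the members. The rule used this contrast, so the counts describe the class. Beside the rule's own Top2a, Mki67 and Cenpf, the leading lower genes were Ube2c, Nusap1, Birc5 and Tpx2, which act in mitosis, and the histone genes Hist1h1b, Hist1h2ap and Hist1h2ae. Of 15 measured G2/M genes, 14 were past the fold, among them Cdk1, Ccnb1, Ccnb2, Plk1, Aurkb and Cdc20. Of 10 S phase genes 0 were past it, with a median log2 difference of -1.38 and -1.22 against -0.02 and -0.05 over all genes. Taken in 1 mouse alone, Prr9, Crym, Krt72 and Cryba4 were past 4-fold higher in mouse 1, with log2 differences of 2.87, 2.68 and 2.13 for Prr9, Crym and Krt72. In mouse 2 the same 3 values were 1.05, 1.74 and 1.15, and 8 other genes were past it (Adarb2, Cpm, Dapl1, Krt35, Map2, Mef2c, Sytl2 and Tm4sf1).

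Against all other kept cells, 36 of 3957 genes were higher (0.910%) and 225 lower (5.69%). Of the 14458 and 13915 kept cells, 6797 and 8645 were collagen-rich as defined above, although the methods name a sort against CD140a. The contrast thus sets the members in large part against such cells. The 20 genes with the largest ratios were Prr9, Krt73, Krt71, Crym, Krt25, Krt28, Cpm, Krt27, Fbp1, Tchh, Cited4, Cryba4, Dsc1, Krt72, Dmkn, Slc39a8, Pof1b, Wdr47, Myh14 and 4833423E24Rik. The other kept cells include the cycling IRS cells, and the log2 difference was 5.68 and 4.49 for Prr9 and 4.19 and 4.73 for Krt71. Fbp1, a gluconeogenic enzyme, had 130 and 101 CPM and was found in 24 and 12 members. Cryba4, known as a lens crystallin gene, had 163 and 59.4 CPM and was found in 20 and 6. Both were thus carried by few cells, like Prr9. The gene Cpm, which encodes carboxypeptidase M, differed between the mice, with a level of 86.2 CPM in mouse 1 and 379 in mouse 2.

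Other leading genes were spread over more of the class. Dmkn, the secreted epidermal protein dermokine, had 503 and 515 CPM against 11.2 and 72.1 in shaft cells. Pof1b, an actin-binding protein of cell junctions, had 224 and 358 CPM against 11.2 and 8.25. The metal ion importer Slc39a8 had 109 and 120 CPM against 1.73 and 4.12. Wdr47, a microtubule-associated protein, had 284 and 413 CPM against 87.3 and 84.5. Cited4, a transcriptional coactivator, was not particular to the IRS, with 290 and 242 CPM in members and 232 and 136 in shaft cells. The leading lower genes were mostly those of fibroblasts and red cells, among them Vim, Sparc, Ogn, Gpc3, Meg3, Hba-a1, Hbb-bs and Hbb-bt.

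Shaft cells are the neighbours of the IRS inside the sheath, and there the gap was wide in both directions. Set against shaft cells, 76 of 3413 genes lay higher (2.23%) and 40 lower (1.17%) in the members. The leading higher genes were Krt71, Krt73, Prr9, Crym, Pou3f1, Ly6d, Krt25, Cpm, Ctsc and Krt28. Pou3f1, a POU-domain transcription factor, had 299 and 392 CPM against 4.32 and 6.18. Ly6d, a surface protein, had 495 and 526 CPM against 29.4 and 4.12. The leading lower genes were Krt35, Mt4, Krtap7-1, Gm49425, Dapl1, Krtap8-1, Selenbp1, Krt31, Krt33a and Krt83, most of them keratins of the shaft and the proteins that bind them. Krt35, a keratin of the shaft cortex, had 30.5 and 128 CPM in members against 7220 and 5238, and 75 of the 84 Krt35 UMIs of mouse 2 came from 1 member. Of 7 measured hair shaft genes, 7 were past the fold, which the definition of shaft cells in part sets. With hair keratins at 1% or more, 21 and 2 shaft cells remained, and 124 of 3383 genes were higher (3.67%) and 49 lower (1.45%).

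Of the listed transcription factors, Gata3, Hoxc13 and Lef1 were past the fold between members and shaft cells. Gata3 had 472 and 477 CPM, against 14.7 and 24.7 in shaft cells, a log2 difference of 4.29 and 3.81. Cux1, a homeodomain factor of the IRS, had 1523 and 2337 CPM, against 452 and 773 in shaft cells and 1399 and 2243 in cycling IRS cells. Each mouse's Cux1 followed its own level in every class. Hoxc13, a regulator of hair keratins, had 32.8 and 53.3 CPM against 579 and 585, and Lef1, which transmits WNT signals, had 161 and 213 CPM against 957 and 1379. Of 15 factors of the list measured there, 1 was past the fold higher (Gata3) and 2 lower (Hoxc13 and Lef1), beside 2.23% higher and 1.17% lower over all genes. The median log2 difference of the 15 was -0.07 and 0.07, against 0.10 and 0.10 over all genes. Of 13 measured against cycling IRS cells, 0 were past the fold, where 0% of all genes were higher and 1.59% lower. Foxn1, the factor lost in nude mice, had 60.3 and 67.0 CPM, with 44.9 and 61.8 in shaft cells. Dlx3 had 220 and 172 CPM, with 111 and 144 in shaft cells. Trps1 had 249 and 222 CPM, with 705 and 849 in shaft cells.

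Among desmosome genes, 3 cadherins were past the fold between members and shaft cells, and none of the measured plaque proteins was. Desmosomes join cells through the cadherins of the Dsc and Dsg families, which bind through plakoglobin (Jup) and plakophilins to desmoplakin (Dsp) and so to keratin filaments. Dsg1a had 216 and 258 CPM, against 36.3 and 30.9 in shaft cells. Dsg4, the desmoglein of the shaft, had 4.58 and 3.05 CPM against 162 and 219. Dsc1 had a log2 difference of 3.07 and 2.58. These 3 were the ones past the fold among 9 measured, where 2.23% of all genes were higher and 1.17% lower. Dsp had 810 and 1158 CPM against 685 and 804. Perp, a membrane protein of desmosomes, had 1183 and 1283 CPM against 603 and 598. Jup stood at 276 and 236 CPM, Pkp1 at 143 and 155 and Pkp3 at 163 and 157 in the members. Against cycling IRS cells 0 of 8 were past the fold, where 0% of all genes were higher and 1.59% lower. The median log2 difference of the 8 was 0.35 and 0.37.

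Genes of IRS hardening were led by Tchh, which encodes trichohyalin, the protein of the IRS granules. Tchh had 725 and 1091 CPM against 358 and 354 in cycling IRS cells, yet only 40 and 20 members held a Tchh UMI, and 10 members held 85.5% and 98.3% of them. In shaft cells its level was 6.91 in mouse 1 and 282 in mouse 2. The crosslinking enzymes were low, with 37.4 and 38.1 CPM of Tgm3 and 12.2 and 29.0 of Tgm1. The envelope proteins Evpl and Ppl had 67.1 and 74.7 CPM and 136 and 119 CPM. Of the 16 genes of the list, 3 were high enough to measure against cycling IRS cells and 0 were past the fold. Over all genes 0% were higher and 1.59% lower there. Ctsc, which encodes the protease cathepsin C, had 442 and 420 CPM, against 13.8 and 14.4 in shaft cells and 446 and 322 in cycling IRS cells. Ctsl, the gene of cathepsin L, was lower than in cells under the keratin threshold, with 97.6 and 67.0 CPM against 576 and 548.

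Of the signalling genes, the BMP target Id1 had 142 and 162 CPM in the members, 103 and 97.9 in cycling IRS cells and 372 and 210 in shaft cells. Id2 had 42.0 and 45.7 CPM against 296 and 227 in shaft cells, and was the 1 gene past the fold among 11 of the BMP list there, where 2.23% of all genes were higher and 1.17% lower. Against cycling IRS cells 0 of 8 BMP genes, 0 of 6 Notch genes, 0 of 3 retinoid genes and 0 of 4 genes of cell cycle exit were past it, where 1.59% of all genes were lower and 0% higher. Notch1 had 263 and 285 CPM, and the Notch target Hes1 had 336 and 318, against 864 and 618 in shaft cells. Of the retinoid genes, the receptor genes Rarg (68.7 and 89.9 CPM), Rara (51.1 and 54.9) and Rxra (29.0 and 24.4) were each under 90 CPM. Lrat, which stores retinol as its esters, had 54.2 and 15.2 CPM, with 24.9 and 9.55 in cycling IRS cells and 0 UMIs in shaft cells. Aldh1a3, which makes retinoic acid, had 12.2 and 6.10 CPM against 90.5 and 72.4 in cells under the keratin threshold.

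The 5 markers of the medulla, the core of the hair shaft, summed to 913 and 1349 CPM in the members, against 201 and 146 in cells under the keratin threshold. Most of this sum came from Tchh, the trichohyalin gene named above for the IRS granules (725 and 1091 CPM), and from Krt75 (125 and 212 CPM). The 6 fibroblast markers, all detected, summed to 5942 and 3008 CPM in the members, against 23914 and 33082 in cells under the keratin threshold. In mouse 1 a single member, with 13.5% of its own UMIs from these markers, held 3392 of them, and without it the sum was 3420 and Krt71 was 6301 CPM. The 5 companion layer markers summed to 479 and 763 CPM, with Krt6b at 0 in both mice and Krt16 at 0 in mouse 1. Of 15 measured hair shaft markers 8 and 5 were detected, at a sum of 230 and 398 CPM, and the cortex keratins Krt33a, Krt33b and Krt34 were at 0. Markers of the outer root sheath and basal cells summed to 339 and 378 CPM against 1189 and 1078, and immune markers, with Cd3e at 0, to 112 and 154 against 164 and 271. Red cell markers summed to 158 and 99.0 CPM against 2421 and 4031. The genes of the 4 sorted antigens summed to 59.5 and 56.4 CPM against 211 and 306. Melanocyte markers summed to 63.3 CPM in mouse 1 and 259 in mouse 2, where 80 of 85 Oca2 UMIs lay in 1 member. Suprabasal markers summed to 83.1 and 59.4 CPM, and the endothelial, mural, dermal papilla and Schwann lists each to 35.0 CPM or less in both mice. The part of such RNA in the class levels was not tested.

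Within the class, cells rich in Prr9 and cells rich in Tchh differed in their keratins. The groups below were chosen after these values had been seen and get no test. With at least 10 Prr9 UMIs there were 15 cells in mouse 1 and 4 in mouse 2, and with at least 10 Tchh UMIs 13 and 10 cells. In mouse 2, 1 cell met both, with 24314 UMIs, and the Prr9-rich cells, this one included, had Tchh at 1281 CPM, against 22.6 in mouse 1. In groups of so few cells the number of shared cells says little. The Prr9-rich cells had high Krt28 (7012 and 4657 CPM) and Krt73 (4873 and 2985) and low Krt71 (532 and 516). They also held Crym at 2660 and 1563 CPM, Krt72 at 719 and 500, Cryba4 at 1149 and 500 and Fbp1 at 843 and 688. Tchh-rich cells had the reverse keratin pattern, with Krt71 at 18928 and 13866 CPM, Krt25 at 12555 and 7672 and Krt73 at 888 and 238. They had 15.2 and 0 CPM of Crym and 0 of Krt72, and held Ly6d at 1472 and 1082 and Dmkn at 1252 and 995. Gata3 was present in both groups, at 572 and 297 CPM in the Prr9-rich and 394 and 231 in the Tchh-rich cells.

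A further set of 10 and 6 members, with at least 5 Krt75 UMIs, went against the name of the class. Krt75 and Krt17 are markers of the companion layer, which lies between the IRS and the outer root sheath, and these cells had 1287 and 1819 CPM of Krt75 and 3128 and 3682 of Krt17. Their Krt71 was 4856 and 4313 CPM, but Krt73 was 17.3 and 14.7, Krt27 was 8.64 and 29.3 and Crym was 0 in both mice. Gata3 was 207 and 147 CPM and Dsc1 was 43.2 and 14.7. The remaining 118 and 50 members, 75.6% and 72.5% of the class, had 5657 and 4027 CPM of Krt71, 719 and 913 of Krt73, 37.2 and 75.7 of Prr9, 75.6 and 26.8 of Tchh and 498 and 627 of Gata3. Levels of the whole class are thus averages over cells of unlike patterns.

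**Figure D3:**
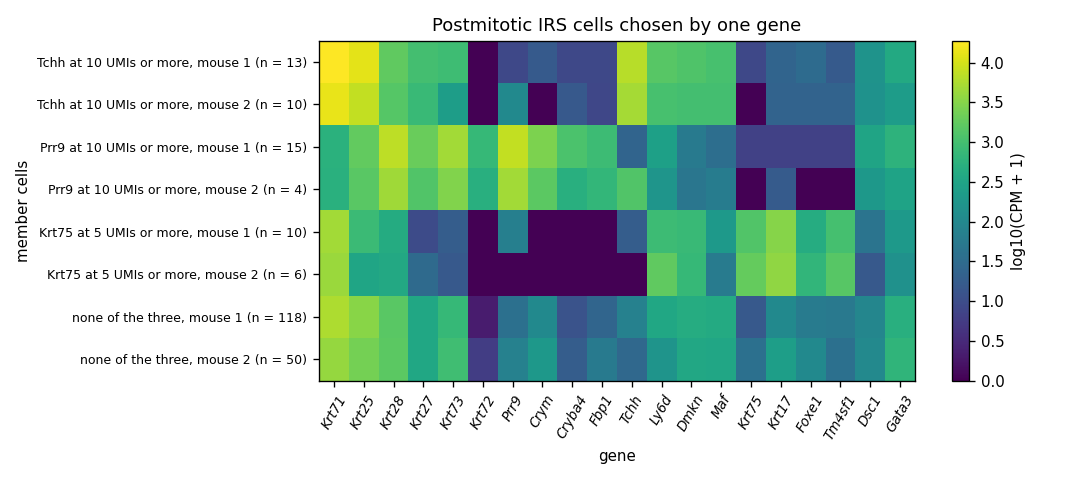
Heat map of levels as log10 of CPM plus 1 in 4 sets of postmitotic IRS cells in each mouse: at least 10 Tchh UMIs, at least 10 Prr9 UMIs, at least 5 Krt75 UMIs, and none of these. Yellow is high and dark purple low: Tchh-rich cells are brightest for Krt71 and dark for Krt72 and Crym, Prr9-rich cells are brighter for Krt28, Krt73, Krt72 and Crym, and Krt75-rich cells are at 0 for Crym.

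A clustering that left out the genes of the rule also set cells led by Prr9 and cells led by Krt75 apart. Of 5 Leiden clusters, a cluster of 18 and 7 cells was led by Krt72, Prr9, Cryba4, Tnfaip6 and Fbp1. Its Tnfaip6 was at 886 CPM in mouse 1 and 0 in mouse 2, and Scrublet called 4 of its cells in mouse 1 doublets. It also held Col1a1 at 6727 and 759 CPM and Sparc at 6166 and 185. The other members of both mice together had 587 CPM of Col1a1 and 295 of Sparc. Another cluster (32 and 4 cells) was led by Ly6d, Crnn, Dmkn and Calm4 with Krt71, at a median IRS keratin share of 1.72% and 3.04%. A cluster of 22 and 20 cells was led by Krt75, Krt17, Tm4sf1, Oca2 and Defb6, at a median keratin share of 0.426% and 0.447%. Its cells of both mice together had 170 CPM of Krt73 and 191 of Gata3, against 1370 and 550 in the other members. In these 2 genes it went against the name of the class, like the Krt75-rich cells above. Oca2 was at 0 CPM in its cells of mouse 1 and 411 in those of mouse 2, and Defb6 at 360 and 5.02. The most populous cluster held 68 and 23 cells and was led by Dapl1, Ptn, Krt35, Ggct and Sat1, with Krt35 at 30.9 CPM in mouse 1 and 351 in mouse 2. The last, with 16 and 15 cells, was led by Adarb2, St8sia4, Map2, Siglech and Mctp2, of which Map2 was detected in 25.8% of its cells and each of the others in 6.45% or less, with 0 CPM in mouse 1. The clusters were left unnamed, and their leading genes are no test.

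The share of IRS keratins in a member ran from 0.301% to 9.75% in mouse 1, with a median of 0.941%, and from 0.313% to 3.95% in mouse 2, with a median of 0.907%. The following levels leave the 5 keratins out of the total. Tchh was higher in each further bin in both mice, with 192 and 250 CPM in cells at 0.3 to 1%, 622 and 1427 at 1 to 3% and 5444 and 4775 at 3 to 10%. Prr9 was highest in the middle bin, with 141 and 201, then 2202 and 1123, then 11.8 and 0 CPM. Crym did the same, with 104 and 109, then 837 and 587, then 0 CPM in both mice. The bins held 81 and 38, 67 and 25, and 8 and 6 cells, so the last rests on few. The S phase list was 508 and 701 CPM in the first bin and 189 and 200 in the last.

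**Figure D4:**
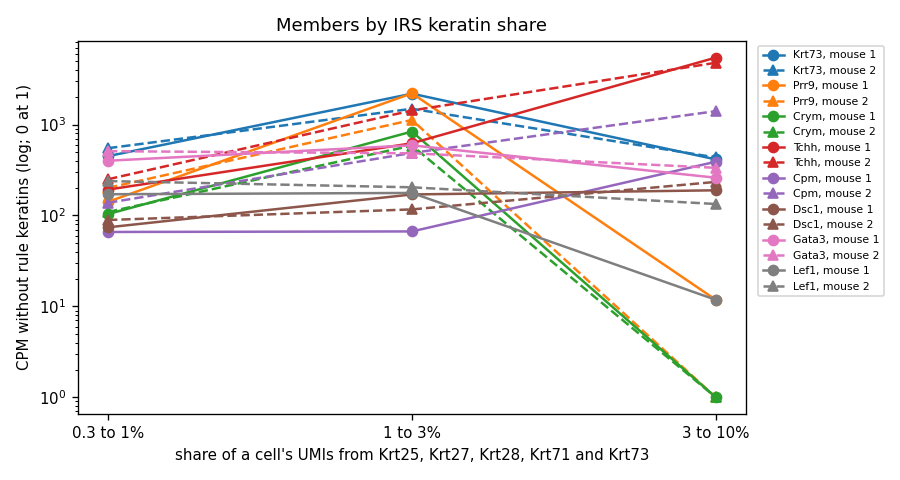
Levels of 8 genes in postmitotic IRS cells binned by the share of UMIs from the 5 IRS keratins (0.3 to 1%, 1 to 3%, 3 to 10%), in CPM without those keratins on a log axis with 0 drawn at 1, for each mouse. Tchh and Dsc1 are highest in the last bin in both mice, while Prr9, Crym and Krt73 peak in the middle bin.

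The threshold on keratins also passed through a gradient. Just inside it, at 0.3 to 0.4%, the 23 and 14 members had 1717 and 1835 CPM of Krt71, 189 and 287 of Krt73 and 511 and 442 of Gata3. Just outside it, at 0.2 to 0.3%, 33 and 11 cells without proliferation UMIs had 997 and 703 CPM of Krt71, 25.7 and 415 of Krt73 and 261 and 383 of Gata3. The balance of the 5 keratins varied as well. Krt71 and Krt25 made up a median of 75.0% and 86.6% of a member's UMIs of the 5 keratins, with over 80% in 74 and 40 members and under 20% in 13 and 6.

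The mice were alike in most genes of the class. Of 3818 genes at 50 CPM or more in either mouse, 13 differed over 4-fold, and across genes, which are not independent replicates, the log levels correlated at 0.939. Most of the widest gaps came from single cells, such as 88 of the 95 Chsy3 UMIs of mouse 2, 137 of the 227 Tnfaip6 UMIs of mouse 1 and 77 of its 84 Defb6 UMIs. Cwc22, a splicing factor, had 166 UMIs in mouse 1 and 576 in mouse 2, spread over 88 and 67 members, and cells under the keratin threshold showed the same gap, with 84.4 and 590 CPM. Bst2 likewise had 12 and 54 UMIs over 11 and 21 members, and 60.7 and 352 CPM in cells under the threshold.

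Whether cells of this kind arose in culture was asked of the single cell cultures, which the rule had not used. Of 262 and 94 kept cultured cells, 0 met the rule, which allows a share of up to 1.15% and 3.19% by the limit of 3 counts over all conditions together. Single conditions allow more, such as 2.65% and 23.1% with BMP2/4. The 5 IRS keratins had 8 UMIs among 8022479 in mouse 1 and 3 among 2862849 in mouse 2, all from Krt27 and Krt28. Krt71, Krt25 and Krt73 had 0 UMIs in both mice. The highest share of IRS keratins in a cell was 0.00922%, far under the 0.3% of the rule, at medians of 29322.5 and 23958.5 UMIs per cell. The conditions held few cells: BMP2/4 had 113 and 13, Rspo+BMP2/4 had 92 and 27, Rspo+BMP2/4+RARi had 5 and 21, B-27 had 5 and 10 and Rspo had 5 and 6. In FBS 0 cells were assigned, and in atRA+PKCi 2 and 1. The paper mapped a larger set of cultured cells to the follicle. It reported traits of differentiating IRS or shaft lineages with Rspo and BMP, beside GATA3 protein and activity of an IRS reporter. The cells kept here cannot speak for that larger set or for protein.

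Other genes of the class did differ between cultures with and without BMP2/4. The test was edgeR's quasi-likelihood test on UMIs summed per mouse and condition, over 6265 genes with Benjamini-Hochberg adjustment. BMP2/4 cultures also held atRA+PKCi and B-27 cultures did not, so those agents cannot be told apart. With BMP2/4, 94 genes rose (1.50%) and 551 fell (8.79%), 10.3% in all. Dsc1 had 18 and 40 UMIs in B-27 cells, which is 95.3 and 182 CPM, and 3 and 0 UMIs in BMP2/4 cells (fitted log2 difference -7.24, SE 0.81, edgeR adjusted p = 9.41e-06), though a fitted value at so few UMIs depends on the prior count. Pof1b fell from 561 and 742 CPM to 56.3 and 43.1 (log2 difference -3.57, SE 0.59, edgeR adjusted p = 0.000335). Dmkn fell from 947 and 1753 CPM to 197 and 168 (-2.80, SE 0.61, edgeR adjusted p = 0.00422). Leaving out either BMP2/4 mouse or the B-27 culture of mouse 2 ended the Dmkn call, with adjusted p of 0.0921 to 0.157. These were the 3 called of the 4 measured genes among the 20 leading ones. Without the BMP2/4 culture of mouse 1, which held 3696276 UMIs, 153 genes were called in all, and without that of mouse 2 247.

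Desmosome genes as a list fell with BMP2/4: 9 of 13 measured members were lower (Dsc1, Dsc2, Dsc3, Dsg1a, Dsg1b, Dsg2, Dsg3, Pkp3 and Cdsn), with a median log2 difference of -3.12 against 0.01 over all genes. Over all genes 1.50% were higher and 8.79% lower, shares that stand beside each list in this paragraph. The calls of Dsc3, Dsg2, Dsg3 and Pkp3 each ended without 1 or another of the cultures. Those of Dsc1, Dsc2, Dsg1a, Dsg1b and Cdsn held in 8 of 8 alternatives. Of the cornification list 6 of 10 were lower (Rptn, Tgm3, Evpl, Ppl, Cdsn and Cst6), with a median of -1.92, of which Ppl and Cdsn held in 8 of 8. Of the proteases and their inhibitors 6 of 10 were lower (Klk7, Klk8, Klk10, Spink5, Cst6 and Csta1), with a median of -1.83, and the calls of Klk8, Spink5, Cst6 and Csta1 each ended without 1 or another of the cultures. Among IRS transcription factors Hoxc13 was higher and Barx2, Prdm1, Grhl1 and Klf4 lower of 14, of which Prdm1 held in 8 of 8. Gata3 had 42.3 and 100 CPM in B-27 and 28.9 and 33.3 in BMP2/4 cells, a log2 difference of -1.14 that missed the threshold (edgeR adjusted p = 0.129). The Hoxc13 call (log2 difference 3.26, SE 0.80, edgeR adjusted p = 0.0111) ended in 4 of 8 alternatives, DESeq2 among them (adjusted p up to 0.120). BMP targets rose: Id1, Id2, Id3 and Smad7 were 4 of 10 BMP genes called, with log2 differences of 3.31, 3.97, 3.55 and 2.83. Leaving out the B-27 culture of mouse 2 ended the calls of Id1 and Smad7 (adjusted p = 0.0766 and 0.0521 in edgeR), and for Smad7 that of mouse 1 did too (0.0615).

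Rspo added to BMP2/4 changed 0 of 6265 genes (0%), with 43 at an unadjusted p under 0.05 in edgeR and 0 called by DESeq2. RARi added to Rspo+BMP2/4 changed 0 (0%) as well, with 229 at an unadjusted p under 0.05 in edgeR and 0 called by DESeq2. The RARi count rested on 5 cells in mouse 1 and was 784 when the RARi culture of mouse 2, the deeper one, was left out.

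The bulk libraries, with 25150200 to 35879600 estimated counts each, allowed a deeper look at the same genes. By edgeR's quasi-likelihood test, 4357 of 15965 genes rose with atRA+PKCi (27.3%) and 4250 fell (26.6%) in wild-type cultures, which is 53.9% in all, and 3350 rose (21.0%) and 3556 fell (22.3%) in Rxra cKO cultures, which is 43.3%. The 2 responses differed by edgeR's interaction test in 4019 genes (25.2%). Rxra itself stood in wild-type libraries at 136 and 108 CPM with FBS and 160 and 149 with atRA+PKCi, and in Rxra cKO libraries at 98.0 and 92.0 with FBS and 157 and 155 with atRA+PKCi. These counts cover the whole gene, exons outside the deleted part included, and so check nothing about the genotype labels. The keratins of the rule were at the floor of detection. Krt25 had at most 1.002 estimated counts in any library, Krt28 at most 4 and Krt73 at most 2.04. Wild-type libraries held 0 and 2 Krt71 counts with FBS and 3.305 and 1 with atRA+PKCi, while Rxra cKO libraries held 1 and 3 with FBS and 15 and 14 with atRA+PKCi. The Rxra cKO groups did not overlap (log2 difference 2.67, SE 0.84, edgeR adjusted p = 0.0277), but leaving out any 1 of these 4 libraries ended the call, with adjusted p of 0.0899 to 0.172, and even the higher level was 0.418 and 0.557 CPM.

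The markers of the class did not move together. In wild-type libraries Prr9 fell from 59.5 and 101 CPM to 7.71 and 8.71 (log2 difference -3.53, SE 0.31, edgeR adjusted p = 0.000225). In Rxra cKO it was 61.6 and 72.7 CPM in FBS and 51.6 and 48.2 in atRA+PKCi (-0.55, SE 0.27, edgeR adjusted p = 0.162). Dsc1 fell in both genotypes. It went from 193 and 153 CPM to 0.313 and 0.0329 in wild-type libraries, which is 9 and 1 counts (log2 difference -10.20, SE 0.31, edgeR adjusted p = 5.00e-08), and from 36.5 and 40.1 to 6.19 and 4.97 CPM in Rxra cKO (-2.88, SE 0.20, edgeR adjusted p = 1.08e-05). Tchh went in opposite directions, from 78.6 and 70.4 CPM down to 14.9 and 13.6 in wild-type (-2.63, SE 0.11, edgeR adjusted p = 4.01e-08) and from 17.4 and 21.0 up to 40.8 and 39.9 in Rxra cKO (0.95, SE 0.11, edgeR adjusted p = 7.33e-05). Gata3 rose slightly in wild-type libraries, from 13.1 and 9.48 CPM to 23.5 and 20.3 (0.72, SE 0.14, edgeR adjusted p = 0.00149). Its Rxra cKO values were 13.1 and 14.2 against 20.0 and 19.1 CPM (0.40, SE 0.14, edgeR adjusted p = 0.0364), a call that ended without any 1 of those 4 libraries.

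**Figure D5:**
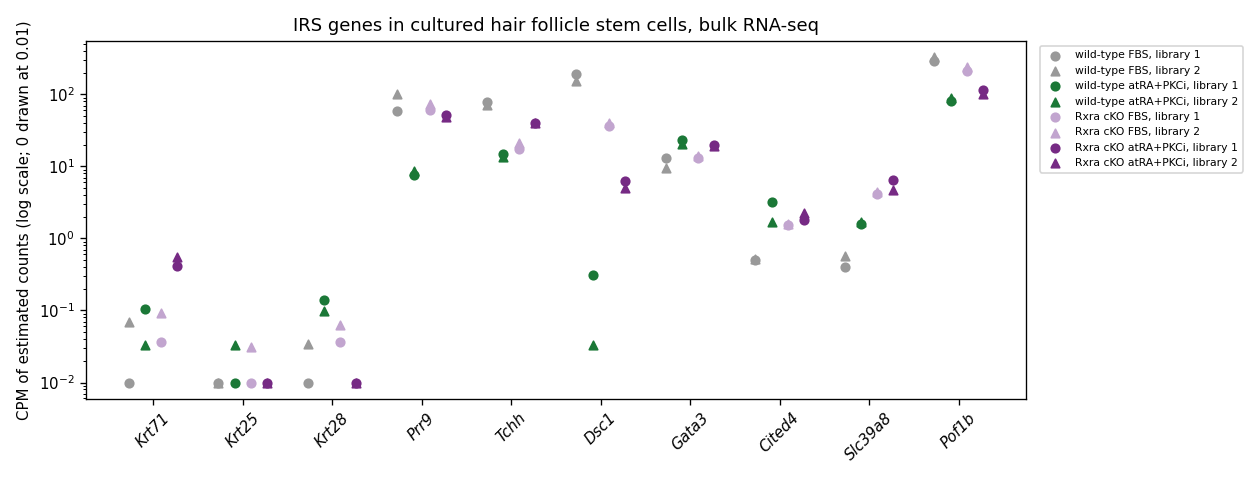
Levels in CPM of 10 genes of postmitotic IRS cells in the 8 bulk libraries of cultured HFSCs, on a log axis with 0 drawn at 0.01, by genotype and medium. Krt71, Krt25 and Krt28 lie under 1 CPM throughout, Prr9 and Dsc1 are lower in atRA+PKCi in wild-type libraries, and Tchh falls in wild-type and rises in Rxra cKO libraries.

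Of the 20 leading genes of the class 12 could be measured in bulk. Over all genes 27.3% rose and 26.6% fell in wild-type libraries, and 21.0% rose and 22.3% fell in Rxra cKO. In wild-type libraries 2 rose (Cited4 and Slc39a8) and 8 fell, with a median log2 difference of -2.35 against 0.03 over all genes, and in Rxra cKO 3 rose (Krt71, Tchh and Wdr47) and 4 fell, with a median of -0.30 against 0.02. The Wdr47 call (log2 difference 0.26, SE 0.09, edgeR adjusted p = 0.0331) held in 2 of 8 alternatives. Dmkn fell from 2016 and 2003 CPM to 215 and 199 in wild-type and from 1241 and 1473 to 444 and 427 in Rxra cKO. Pof1b fell from 290 and 332 CPM to 82.1 and 88.0 and from 210 and 237 to 117 and 103. The transcript 4833423E24Rik fell from 16.3 and 15.6 CPM to 0.660 and 0.559 in wild-type libraries, and had 7.69 and 11.2 CPM in FBS and 8.19 and 6.24 in atRA+PKCi in Rxra cKO (edgeR adjusted p = 0.0692).

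Of 16 desmosome genes 14 were lower in wild-type (median log2 difference -1.84) and 9 in Rxra cKO (-0.33). Dsg1a went from 157 and 122 CPM to 0.347 and 0.427 in wild-type (log2 difference -8.71, SE 0.30, edgeR adjusted p = 1.48e-07), and had 46.7 and 61.0 CPM in FBS and 56.0 and 46.6 in atRA+PKCi in Rxra cKO (edgeR adjusted p = 0.417). Of 16 cornification genes 12 were lower and 1 higher (Padi1) in wild-type, and 12 lower and 2 higher (Tchh and Padi1) in Rxra cKO, where the Padi1 call (log2 difference 0.53, edgeR adjusted p = 0.00909) ended in 3 of 8 alternatives. Of 23 transcription factors 7 were higher and 12 lower in wild-type and 7 higher and 7 lower in Rxra cKO, beside shares over all genes of 27.3% up and 26.6% down in wild-type and 21.0% up and 22.3% down in Rxra cKO. Foxn1 fell from 4.36 and 4.03 CPM to 0.451 and 0.296 in wild-type (log2 difference -3.72, SE 0.31, edgeR adjusted p = 5.23e-06). Ctsc, high in the IRS of skin, fell from 17.6 and 15.7 CPM to 1.94 and 2.07 in wild-type libraries, and stood at 189 and 192 CPM in FBS and 243 and 228 in atRA+PKCi in the libraries labelled Rxra cKO. Among 16 retinoid genes, wild-type cultures had 9 higher and 4 lower and Rxra cKO cultures 8 and 4. Lrat rose in wild-type from 0.0998 and 0.409 CPM to 1.94 and 3.95 (log2 difference 3.29, SE 0.54, edgeR adjusted p = 0.000759).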

How the data were processed

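Single cell matrices of wild-type AnaVI back skin (2 mice), pooled HFSC cultures (2 mice) and 8 bulk RNA-seq libraries were used. The authors deposited UMI counts per gene and cell from Cell Ranger (7.0.0 in the file header, 7.0.1 in the submitters' processing notes) on mm10, before the removal of free RNA and doublets that the methods name. For bulk RNA-seq the authors deposited estimated counts per gene (Salmon 1.4.0), rounded here to whole numbers, and a normalized signal used in 1 alternative. ATAC-seq and CUT&RUN files were not used here. Counts were summed per mouse and class. Sums of cultures (conditions with 5 or more cells in both mice) and bulk counts were tested with edgeR 4.0.16 in R 4.3.3 (TMM, filterByExpr, quasi-likelihood, 1 mean per group, Benjamini-Hochberg adjustment over all genes, called at adjusted p under 0.05). Hashtags were assigned with HTODemux in Seurat 5.3.0 (quantile 0.99), and doublets and clusters computed in scanpy 1.11.5 in Python 3.11.15. The fits were tested on simulated data, where 130 of 200 genes with a 4-fold change were called in BMP2/4 against B-27 (7 false calls) and 186 of 200 in wild-type bulk (9 false calls). The members and gene lists were chosen with earlier results of these data known. Genes named are those of the lists, the 20 leading genes against all other kept cells, the 10 leading genes each way against cycling IRS and shaft cells, the 5 leading genes of each cluster and the 10 genes differing most between mice. Within a genotype, bulk libraries with 1 number came from 1 mouse per the labels. Shaft cells, leaving out the member richest in fibroblast RNA, and the Prr9, Tchh and Krt75 groups were added after seeing the data. Over 15965 genes, deviations of such pairs correlated at 0.0668 (wild-type) and -0.0188 (Rxra cKO). Promoter sequences came from RefSeq (GRCm38.p6). Alternatives were other keratin thresholds, filters, doublet removal, thinning to 3000 UMIs, pseudocounts, hashtag rules, DESeq2 1.42.0, limma 3.58.1, the replicate block and leaving out each library.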

Additional observations from a re-analysis of the deposited data

Results flagged for a closer look

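For 9 of the 12 measured leading genes of postmitotic IRS cells the response of bulk cultures to atRA+PKCi differed between the genotypes by edgeR's interaction test over 15965 genes (log2 response in wild-type minus that in Rxra cKO, 2 libraries per group), which called 25.2% of all genes. It was lower in wild-type for Dsc1 (-7.32, SE 0.44, adjusted p = 1.62e-05), 4833423E24Rik (-4.44, SE 0.34, adjusted p = 2.16e-05) and Tchh (-3.58, SE 0.15, adjusted p = 7.01e-07), the last of which fell in wild-type and rose in Rxra cKO. The same sign was found for Prr9 (-2.98, SE 0.41, adjusted p = 0.00421), Dmkn (-1.76, SE 0.15, adjusted p = 3.36e-05), Myh14 (-1.53, SE 0.30, adjusted p = 0.00898) and Pof1b (-0.97, SE 0.16, adjusted p = 0.00231). It was higher in wild-type for Cited4 (1.77, SE 0.48, adjusted p = 0.0224) and Slc39a8 (1.20, SE 0.37, adjusted p = 0.0411). For Krt71 (-1.96, adjusted p = 0.462) and Gata3 (0.31, adjusted p = 0.276) the difference missed the threshold. For Dsc1 the size rests on 9 and 1 counts in wild-type atRA+PKCi. The response is to the whole serum-free medium and not to atRA and PKCi alone.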

How the results depend on the processing

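No result reversed under the alternatives run, though in cultures and bulk only named genes called in the main fit were followed. For these, 210 of 2468 alternatives ended a call. In the members, 1359 of 5312 alternative values of named genes were counted as moved. The number of members followed the rule: against 156 and 69 cells (17.0% and 12.2% of IRS-keratin cells) it was 75 and 31 (30.2% and 25.4%) at a keratin share of 1%, 323 and 141 (12.8% and 9.31%) at 0.1%, 88 and 28 (8.64% in mouse 2) at 1000 genes and under 5% mitochondrial UMIs, 300 and 150 (30.1% and 26.4%) after thinning to 3000 UMIs, and 62 and 33 (6.77% and 5.83%) with S phase and G2/M lists also at 2 UMIs or fewer. The 5 keratins took 1.32% of the members' UMIs, 2.07% at the 1% share and 1.13% after thinning. Against cycling IRS cells, genes lower in members went from 56 to 24 at the 1% share, and genes higher from 0 to 1 without doublets (Cd74) and to 1 after thinning (Crym). In 1 mouse alone the counts were 4 to 8 higher, 94 to 132 higher and 56 to 75 lower against shaft cells, and 181 to 609 and 80 to 163 against shaft cells at 1%. With a pseudocount of 1 CPM 58 genes were higher and 369 lower than in all other kept cells. Resolution 1.0 gave 8 clusters. In cultures BMP2/4 against B-27 called 645 genes, 590 in DESeq2, 1137 by the 70% hashtag rule (25.4% of them higher, against 14.6%) and 153 to 455 without 1 culture. Rspo gave 4 without the filter on low counts, 2 by that hashtag rule and 0 to 3 without 1 culture, and RARi gave 6, 14 and 0 to 784. In bulk, wild-type calls were 8607, 7296 in DESeq2 and 7160 to 8276 without 1 library, and Rxra cKO calls 6906, 5609 and 4693 to 5536. With the replicate block the counts were 8606 and 6903 in bulk, where the pairing by mouse ended calls of Rarb in both genotypes and of Krt33a, Crabp1 and Aldh1a1 in Rxra cKO and no other named one, and 593, 0 and 0 in cultures, whose same-numbered sums correlated at -0.129, 0.165 and -0.235. Depth limits the class itself, since 0 UMIs of a gene is more likely in a shallow cell. The causes were not tested.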
